A study of Mus musculus with 16 samples.

Results

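Nts, Nmu, Adcyap1 and Edn2 encode secreted peptides that have been linked to the response of the ovarian follicle to luteinizing hormone (LH) or whose signal was lower after 24 h than after 12 h of culture in an earlier look at these arrays. The 4 genes were chosen by those criteria, so their fall with time is described here without a test. They are 4 of 18193 genes with a probe set of a single symbol on the arrays, and they are covered by 5 probe sets, of which Adcyap1 has 2. Of the 4 genes, 3 lay over the signal filter that left 12172 genes for testing; Edn2 did not.

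The arrays measured total RNA of follicles, from preantral up to small antral ones, dissected from ovaries of C57BL/6Tac mice aged 6 to 8 weeks, with no genetic change. Follicles of 8 mice were pooled for an experiment, allocated to single drops, and kept for 12 or 24 h either without or with added anti-Müllerian hormone (AMH, recombinant, at 50 ng/ml), a TGF-β family hormone of growing follicles. All groups, controls included, had 80 IU/L follicle-stimulating hormone and 10 IU/L LH in the medium, so no group shows the peptides without gonadotropins. Each of the 4 groups (control 12 h, AMH 12 h, control 24 h, AMH 24 h) held 4 arrays, and each array the RNA of 6 to 9 follicles; an AMH array and the control array of its number and time came from a common pool and form a pair. The comparisons ask whether AMH changes these transcripts at either time.

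Neurotensin, the product of Nts, acts on G protein-coupled receptors and binds the sorting receptor sortilin. Neuromedin U, from Nmu, is a peptide named for its contraction of smooth muscle. Adcyap1 encodes PACAP, a peptide of the glucagon and VIP family that raises cyclic AMP. Edn2 encodes endothelin 2, a vasoconstrictor that acts on smooth muscle. In the ovary, the LH surge switches on a short-lived programme in granulosa cells through cyclic AMP, epidermal growth factor-like ligands and the progesterone receptor. PACAP, neurotensin and endothelin 2 are known as products of that programme, and endothelin 2 as a peptide made briefly near ovulation.

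Nts lies on chromosome 10 of GRCm38.p6 (chr10:102481756-102490418, minus strand), Nmu on chromosome 5 (chr5:76333495-76363777, minus strand), Adcyap1 on chromosome 17 (chr17:93198245-93206541, plus strand) and Edn2 on chromosome 4 (chr4:120161206-120167360, plus strand), by RefSeq. The promoter windows of Nts and Nmu are shown because both signals fell together, with that of Adcyap1 for contrast. Each covers 250 bases before to 50 after a RefSeq start and is written 5′ to 3′ on the strand of the gene. For Nts and Nmu this is the first base of the gene span given above. For Adcyap1 it lies inside that span, so the Adcyap1 window is not upstream of the whole gene. Capitals mark matches to the AP-1 motif TGANTCA, to TGACNTCA, the cyclic AMP response element with 1 base left free, and to its short core TGACG, on either strand. Nts is at chr10:102490369-102490668, Nmu at chr5:76363728-76364027 and the Adcyap1 window, the farther upstream of 2 overlapping windows, at chr17:93198767-93199066.
Nts: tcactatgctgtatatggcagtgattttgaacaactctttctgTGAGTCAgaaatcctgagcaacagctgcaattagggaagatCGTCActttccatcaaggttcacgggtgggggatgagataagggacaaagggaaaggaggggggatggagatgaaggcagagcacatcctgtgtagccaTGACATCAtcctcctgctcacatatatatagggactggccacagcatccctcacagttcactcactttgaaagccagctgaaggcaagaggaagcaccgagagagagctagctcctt
Nmu: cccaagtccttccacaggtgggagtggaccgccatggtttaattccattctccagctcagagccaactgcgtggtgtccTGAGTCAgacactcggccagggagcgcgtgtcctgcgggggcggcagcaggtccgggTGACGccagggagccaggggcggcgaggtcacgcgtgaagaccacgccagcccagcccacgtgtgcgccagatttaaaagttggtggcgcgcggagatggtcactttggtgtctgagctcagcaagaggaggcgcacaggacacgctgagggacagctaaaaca
Adcyap1: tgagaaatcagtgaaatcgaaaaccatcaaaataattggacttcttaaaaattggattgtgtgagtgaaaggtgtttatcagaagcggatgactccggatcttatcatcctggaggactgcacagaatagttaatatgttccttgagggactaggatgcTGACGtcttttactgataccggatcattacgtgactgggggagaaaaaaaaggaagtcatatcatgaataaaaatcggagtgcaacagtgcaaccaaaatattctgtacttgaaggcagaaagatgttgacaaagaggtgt

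The Nts and Nmu windows each held one AP-1 match with the same 7 letters, TGAGTCA, beginning 207 bases before the start of Nts and 171 before that of Nmu. Of 32851 promoter windows of this length, 7.81% held TGANTCA. The core TGACG began 114 bases before the start of Nmu and 91 before the start used for the Adcyap1 window shown. Its reverse complement began 166 bases before the start of Nts. The core was held by 20.8% of all windows. Only Nts among the 4 genes matched TGACNTCA, 67 bases before its start, as TGACATCA (8.83% of all windows). The hypoxia response core ACGTG was present for Nmu and Adcyap1 (19.6% of all windows), and the Edn2 window held a match to the RUNX motif TGTGGT on the minus strand, 65 bases before its start (16.8% of all windows), and none of the others named here. The form with a free base was added after the Nts letters had been seen. These are matches of letters, not measured sites.

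Nts was lower at 24 h than at 12 h on every array of its arm, and in controls its change was the largest of the 4 genes. In control follicles at 12 h its signal was 492, 516, 391 and 1145 in replicates 1 to 4, and at 24 h it was 55.0, 22.0, 28.5 and 26.1. With AMH the signals were 92.6, 415, 332 and 190.3 at 12 h and 22.8, 29.1, 39.9 and 33 at 24 h. In each arm every 12 h array lay above every 24 h array, and the 3 highest values were all controls of 12 h. The mean log2 signal went from 9.19 ± 0.67 (SD, n = 4) to 5.02 ± 0.55 in controls, an 18.0-fold fall, and from 7.81 ± 0.96 to 5.00 ± 0.32 with AMH, a 6.98-fold fall. At 24 h the controls and the AMH arrays had nearly the same mean. A log2 signal here is log2(signal + 1.46), and the offset understates the fold of low signals.

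Nmu was also lower at 24 h than at 12 h in each arm. Its signal in controls at 12 h was 100.2, 130.3, 53.9 and 97.0, and at 24 h 11.8, 5.27, 13.3 and 21.8. With AMH it was 57.0, 75.3, 62.4 and 55.5 at 12 h and 6.45, 2.65, 10.5 and 8.44 at 24 h. No 24 h array reached a 12 h array of its arm. The mean log2 signal fell by 2.80 in controls (SE 0.38, 6.99-fold) and fell by 3.01 with AMH (SE 0.38, 8.06-fold). The 4 AMH arrays at 24 h, and 3 of the 4 controls, had a signal under the level of the filter, 16.6, so the size of the fall depends on the offset: with an offset of 16 the changes were -1.92 and -1.78.

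Of the 3 tested members, Nts and Nmu had all 24 h arrays below all 12 h arrays, in each arm. Among all 12172 genes, 10.9% had that pattern in controls and 7.65% with AMH. The rule used this contrast, so nothing is read from the count. Across the 16 arrays the log2 values of Nts and Nmu had a Pearson correlation of 0.91, which holds the shared difference between times; for the deviations of each array from the mean of its group it was 0.30. In bulk RNA of whole follicles, fewer cells of a type and less RNA per cell cannot be told apart.

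Adcyap1 varied widely between arrays of one group. By the probe set with the higher mean (1423427_at), the control signals were 85.2, 53.1, 378 and 231 at 12 h and 16.4, 55.3, 31.0 and 53.6 at 24 h. With AMH they were 30.5, 55.1, 239.8 and 70.2 at 12 h and 16.1, 69.6, 121 and 33.4 at 24 h. The groups of both arms overlapped, and in each 12 h group replicate 3 was the highest. The mean log2 signal was 7.16 ± 1.28 (SD, n = 4) at 12 h and 5.20 ± 0.79 at 24 h in controls, a difference of -1.96 (SE 0.70), and 6.22 ± 1.23 and 5.59 ± 1.22 with AMH, a difference of -0.64 (SE 0.70). Without replicate 3 the control difference was -1.43, and without replicate 2 it was -2.63 in controls and -0.96 with AMH. The second probe set (1441778_at) gave differences of -1.53 and -0.88. Over the 16 arrays both probe sets had a correlation of 0.974 (0.977 for deviations from the group means), so they shared the spread between arrays. Both read the same amplified RNA on the same array, so effects of array or amplification would be in both.

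Edn2 stood near the level of the filter in every group and was not lower at 24 h. Its signal was 12.5, 8.88, 23.4 and 12.5 in controls at 12 h, 11.7, 13.4, 26.8 and 14.9 in the AMH arm of that time, 22.7, 16.6, 13.5 and 12.4 in controls at 24 h and 17.0, 15.9, 23.0 and 12.6 in the AMH arm at 24 h. The 4 groups overlapped throughout. Its mean log2 signal of 4.08 was just under the filter at 4.18. The difference between 24 h and 12 h was 0.21 (SE 0.33) in controls and 0.07 (SE 0.33) with AMH, in a fit without the filter. Its place among ovulatory peptides comes from what is known of the gene and not from these arrays.

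**Figure D1:**
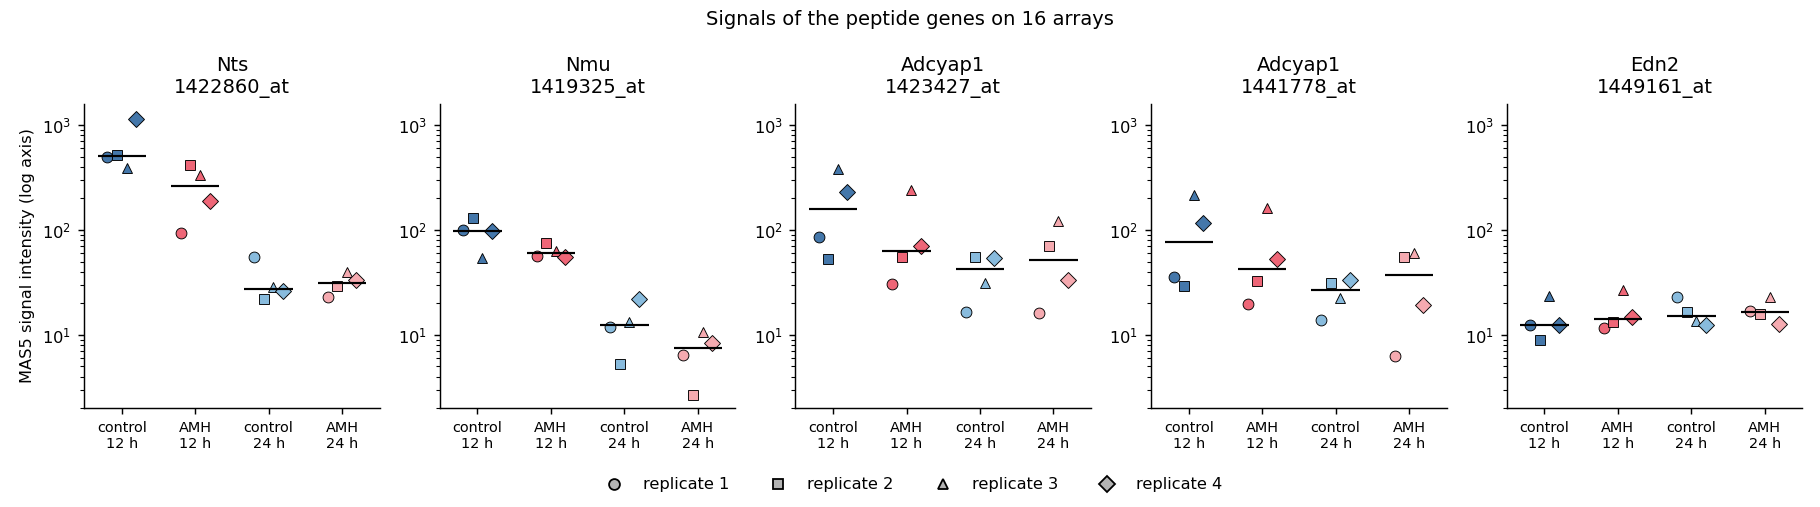
MAS5 signal intensity (log axis) of the 5 probe sets of Nts, Nmu, Adcyap1 and Edn2 on each of the 16 arrays, by group; each point is an array, its shape gives the replicate and the bar is the median of the group. Nts and Nmu at 12 h lie above all 24 h arrays of the same arm, the Adcyap1 groups overlap, and Edn2 stays between 8.88 and 26.8.

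AMH-treated follicles had lower values of the 3 tested peptide genes at 12 h in most pairs, but none passed. The Nts difference between AMH and control was -2.39, -0.31, -0.24 and -2.58 in pairs 1 to 4, so it was below 0 in 4 of 4 pairs, small in pairs 2 and 3 and large in the others. The mean was -1.38 (SE 0.42, 95% interval -2.31 to -0.45, adjusted p = 0.593 by limma), a signal 2.60-fold lower with AMH. Without replicate 4 the mean was -0.98. The Nmu difference was -0.80, -0.78, 0.21 and -0.79, with a mean of -0.54 (SE 0.26, 95% interval -1.12 to 0.04, adjusted p = 0.788). For Adcyap1 the pairs had -1.44, 0.05, -0.65 and -1.69, with a mean of -0.93 (SE 0.39, 95% interval -1.79 to -0.08, adjusted p = 0.716). Its second probe set gave -0.55 (SE 0.38). Edn2, by the fit without the filter, had a mean of 0.21 (SE 0.29, adjusted p = 0.981 by limma) and 3 of 4 pairs above 0. Limma called 0 of 12172 genes in this comparison, a share of 0%, with 788 at an unadjusted p under 0.05.

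At 24 h, Nmu was lower with AMH in 4 of 4 pairs, with differences of -0.75, -0.71, -0.30 and -1.23, with a mean of -0.75 (SE 0.26, 95% interval -1.33 to -0.17, adjusted p = 0.967 by limma). These are differences between signals that mostly lie under the filter, and with an offset of 16 the mean was -0.32. The Nts pairs had -1.22, 0.38, 0.46 and 0.32, so pair 1 ran against the others. The mean for Nts was -0.01 (SE 0.42, 95% interval -0.94 to 0.91), and it was 0.39 without replicate 1. Adcyap1 had -0.02, 0.32, 1.91 and -0.66 in its pairs and a mean of 0.39 (SE 0.39, 95% interval -0.47 to 1.25), which was -0.12 without replicate 3. The adjusted p by limma was 1.00 for Nts and for Adcyap1, and Edn2 had a mean of 0.07 (SE 0.29). None of the 3 tested members was called, and 0.0164% of all genes were.

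Over both times together, Nmu was lower with AMH in 7 of 8 pairs, with a mean of -0.64 (SE 0.19, 95% interval -1.05 to -0.23, unadjusted p = 0.00553 and adjusted p = 0.894 by limma), which was -0.39 with an offset of 16. Nts had a mean of -0.70 (SE 0.30, unadjusted p = 0.0391 and adjusted p = 0.999 by limma). It was below 0 in 5 of 8 pairs, and its mean was -0.33 without replicate 1. Adcyap1 had a mean of -0.27 (SE 0.27, unadjusted p = 0.343 and adjusted p = 0.999 by limma). By limma 0% of the 12172 genes were called for this mean, with 585 at an unadjusted p under 0.05. The AMH effect at 24 h minus that at 12 h was 1.37 for Nts (SE 0.59, 95% interval 0.06 to 2.68, adjusted p = 0.875), 1.32 for Adcyap1 (SE 0.55, 95% interval 0.11 to 2.53, adjusted p = 0.85) and -0.21 for Nmu (SE 0.37, adjusted p = 0.976). Without replicate 4 the Nts value was 0.85. This is the same quantity as the difference between the arms in the fall from 12 to 24 h, so the smaller Nts fall with AMH did not pass the test. Limma called 0% of all genes here too, with 687 at an unadjusted p under 0.05.

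**Figure D2:**
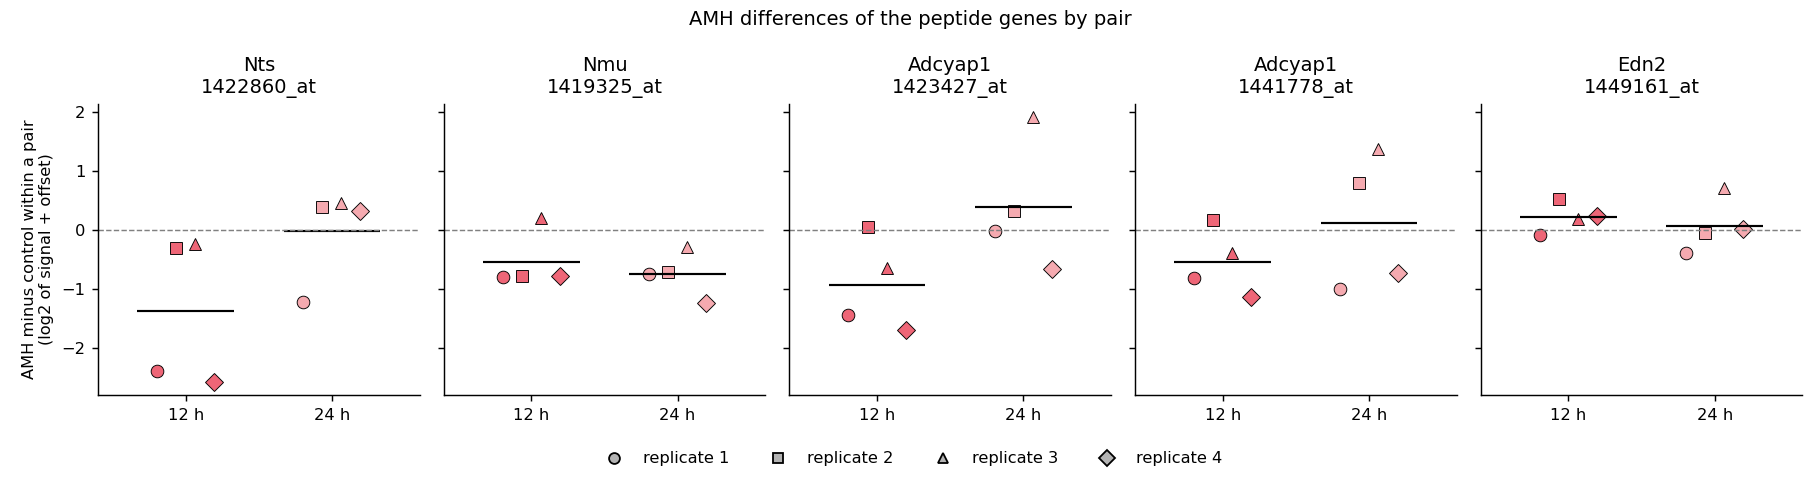
Difference between the AMH array and the control array of each pair, on the scale of log2(signal + 1.46), for the 5 probe sets at 12 h and 24 h; shapes give the replicate, the bar is the mean of 4 pairs and the dashed line is no difference. The 4 Nts pairs at 12 h and the 4 Nmu pairs at 24 h lie below 0, while Nts and Adcyap1 pairs lie on both sides at 24 h.

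The array-to-array spread of Adcyap1 went with that of endothelial genes. The 10 endothelial markers, all over the filter, had summed signals of 1101 to 3325 in controls at 12 h, 921 to 2572 in the AMH arm of the same time, 840.4 to 1339 in controls at 24 h and 1054 to 1759 in AMH-treated follicles at that time. Replicate 3 at 12 h, the highest array for Adcyap1 in both arms, also held the highest mean log2 signal of these genes in both (7.86 and 7.52). This was not particular to endothelial genes. In each arm the same array was the highest of its group for immune, oocyte, and stroma and smooth muscle genes, and the lowest for granulosa genes. The endothelial mean was lower with AMH than in the control in 4 of 4 pairs at 12 h, where the Adcyap1 value was lower in 3 of 4. At 24 h 10 of 10 endothelial genes had a mean difference above 0 (median 0.32, none called), as did Adcyap1 (0.39). By pairs, Adcyap1 was above 0 in 2 of 4. The endothelial mean was lower with AMH in pair 4 (6.31 against 6.50), as was Adcyap1, and higher in the other pairs. From 12 to 24 h in controls 10 of 10 endothelial genes had a change below 0 and 1 was called, Emcn, beside 9.19% of all genes called lower. With AMH 5 were above 0 and 5 below, with a median of -0.04 and none called. With each value taken as a deviation from the mean of its group, Adcyap1 and the mean of the endothelial genes had a Pearson correlation of 0.859 (exact permutation within groups, p = 0.000618) and a Spearman correlation of 0.788 (exact permutation p = 0.00272) over 16 arrays, and r = 0.774 without the 2 arrays farthest out in endothelial signal. Adjusted over 56 such relations (7 genes with 8 marker lists) the p was 0.0342. The relation was picked out after the values had been seen, and arrays of a pair share a pool, so they are not independent. For theca genes, 5 of 6 over the filter, r was 0.770 (exact permutation, adjusted p = 0.0352). For surface epithelium genes it was 0.612 (exact permutation, adjusted p = 0.18). The part of these cell types in the Adcyap1 differences was not tested.

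The same measure was 0.166 for Nts and -0.281 for Nmu against the endothelial genes (exact permutation, adjusted p = 0.802 and 0.404). For Edn2 it was 0.638 (exact permutation, adjusted p = 0.18) and 0.284 without the 2 arrays farthest out, so it rests on those arrays. Nmu ran against the immune genes (9 with a probe set, 7 over the filter), with r = -0.725 (exact permutation, adjusted p = 0.0352). The Nmu deviations farthest below 0, -0.98 and -0.94, were those of replicate 2 at 24 h in controls and with AMH. Their signals, 5.27 and 2.65, lay under the filter, where log2 values depend on the offset. The relation was not run with another offset, and arrays of a pair share a pool here too. The summed immune signals were 639 to 1366 and 436 to 1205 for the control and AMH arms of 12 h, and 336 to 668 and 438 to 1181 for those of 24 h. The part of immune cells in the Nmu values was not tested. The immune gene Ptprc ranged from 0.283 to 18.8 in signal and Adgre1 from 1.74 to 13.7, both near the floor.

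**Figure D3:**
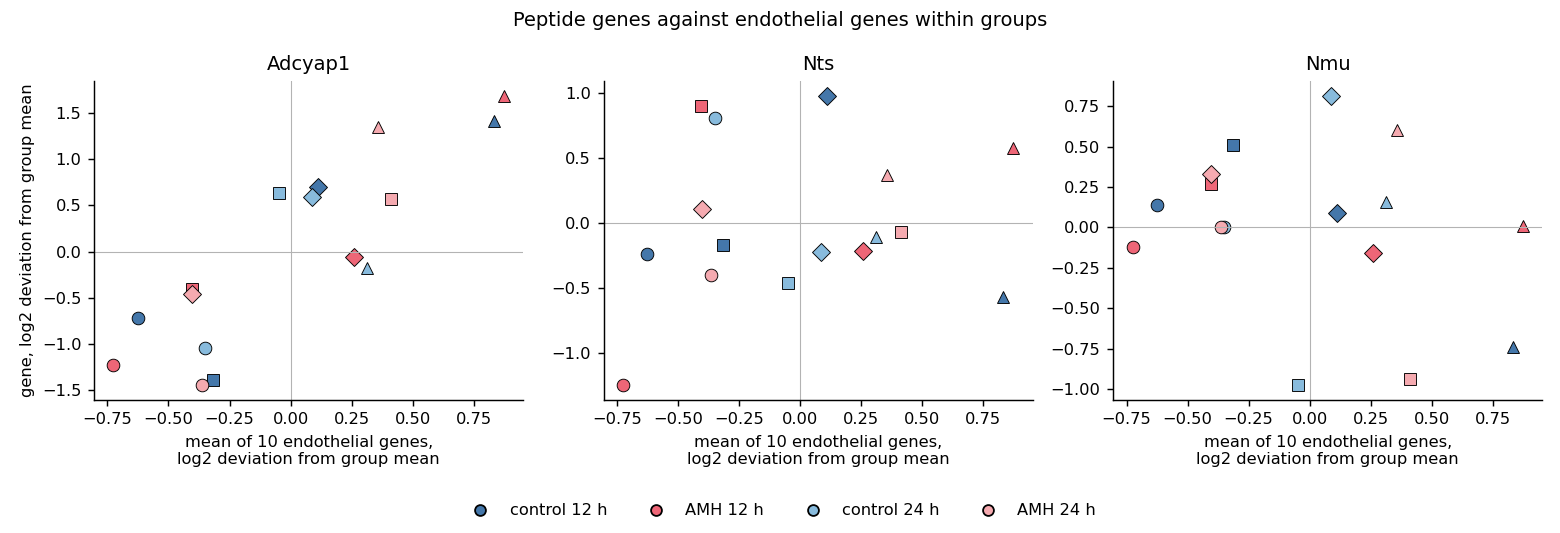
Log2 value of Adcyap1, Nts and Nmu on each array against the mean of 10 endothelial genes, both as the deviation from the mean of the array's group; colours give the group and shapes the replicate (circle 1, square 2, triangle 3, diamond 4). Adcyap1 follows the endothelial genes (r = 0.859) and Nts (r = 0.166) and Nmu (r = -0.281) do not line up with them.

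Genes with the most similar pattern differed between the peptides. By Pearson correlation of log2 values over the 16 arrays, the 5 genes closest to Nts were Aldh1a3, an enzyme that makes retinoic acid (r = 0.950, and 0.439 for deviations from the group means), Slc41a2 (0.950 and 0.803), Eif2b2 (0.948 and 0.547), Btc, the epidermal growth factor-like ligand betacellulin (0.939 and 0.410), and Tram1 (0.938 and 0.453). Those closest to Nmu were Zwint, a kinetochore gene (0.953 and 0.501), Tnfrsf23, Irak2, Cks2, a partner of cyclin-dependent kinases, and Aldh1a3 (0.931 and 0.499), which stood on both lists. Those closest to Adcyap1 were Emcn, an endothelial sialomucin and 1 of the 10 endothelial markers (0.923 and 0.895), B4galt6, Ctla2a, Eml1 and Adgrl4, an adhesion receptor of endothelial cells (0.898 and 0.899). The likeness to Nts and Nmu was lower once group means were taken out, least so for Slc41a2 among those of Nts, while that of Emcn and Adgrl4 to Adcyap1 was about as high within groups. Edn2 was closest to Plpp3 (0.872 and 0.914), and the next was at 0.776. These are ranks over 12172 genes and 16 arrays, given as a description.

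The other cell types of a follicle were present. Of 13 granulosa markers with a probe set, 13 lay over the filter, and their summed signal was 4302 to 8461 in controls at 12 h and 9477 to 15428 at 24 h. In controls 12 of these 13 genes had a change above 0 and 8 were called higher, beside 9.96% of all genes. Amh ran the other way, with a difference of -1.08. With AMH the granulosa sums were 5155 to 10276 and 9994 to 17623. Of 14 oocyte genes 13 lay over the filter, with sums of 2496 to 12024 over all arrays. Nerve fibres were looked for because these peptides are also made by neurons: 4 of 13 neuronal markers lay over the filter (Tubb3, Elavl3, Syn1 and Uchl1), while the neurofilament genes Nefl, Nefm and Nefh had highest signals of 15.4, 9.70 and 20.8 and Th and Dbh, of the catecholamine pathway, of 23.0 and 15.0. The summed neuronal signal was 1358 to 1639 in controls at 12 h and 1374 to 1957 at 24 h. Most of it came from Tubb3 and Uchl1, with medians of 554 and 783 in controls at 12 h. The sum therefore cannot show whether the neuronal genes near the floor changed. The sums of 9 surface epithelium markers were 4674 to 7825 at 12 h and 2822 to 5292 at 24 h in controls, with overlap. Krt8 and Krt18, which held most of the sum (control medians of 2082 and 2251 at 12 h), were called lower in both arms. No other of the 9 was called, beside 9.19% of all genes called lower in controls and 3.94% with AMH. In each arm 7 had a change below 0 and 2 above, with Upk3b at 1.29 and 1.28. The sums of 12 stroma and smooth muscle markers in controls were 2316 to 6115 and 5851 to 8578. The part of a changing mix of cells in the fall of Nts and Nmu was not tested.

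Receptors for the 4 peptides were mostly under the filter. Of 10 receptor genes 9 had a probe set, with Ednra not analysed here, and 3 lay over the filter: Sort1, Adcyap1r1, the PACAP-specific receptor, and Ednrb, a receptor of endothelins. The highest signal on any array was 8.50 for Ntsr1, 21.0 for Ntsr2, 21.4 for Nmur1, 4.41 for Nmur2, 20.3 for Vipr1 and 9.88 for Vipr2. So the G protein-coupled receptors of neurotensin and neuromedin U were under or near the filter on all arrays, and Sort1 was the one neurotensin receptor gene over it.

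In control follicles Sort1 and Ednrb fell from 12 to 24 h. Sort1 signals were 299, 221, 216 and 349 at 12 h and 96.5, 145, 156 and 138 at 24 h, without overlap, a change of -1.0 (SE 0.23, adjusted p = 0.00721 by limma). Ednrb signals were 66.9, 38.8, 162 and 103 at 12 h and 41.0, 11.8, 19.0 and 26.5 at 24 h, and replicate 1 of 24 h overlapped with the 12 h group; the change was -1.80 (SE 0.58, adjusted p = 0.0389). Adcyap1r1 was at 41.4, 27.5, 95.9 and 91.6 and then at 32.9, 20.1, 22.4 and 40.9, a difference of -0.98 (SE 0.40, adjusted p = 0.0964), which passed with each array centred on its median (-1.16, adjusted p = 0.0437) and with quantile normalization (-1.14, adjusted p = 0.0479). Leaving out replicate 1 (adjusted p = 0.0649) or 4 (adjusted p = 0.0557) ended the Sort1 call, and leaving out replicate 2, 3 or 4 the Ednrb call (adjusted p = 0.0746, 0.206 and 0.119). In this comparison 9.19% of all genes were called lower and 9.96% higher. With each array centred on its median, which moved the median change of all genes to -0.19, 612 of 2485 called genes were higher, against 1212 of 2330 as reported. The 3 probe sets of Ednrb had differences of -1.80, -1.49 and -0.85, and those of Sort1 of -1.0, -0.74 and -0.71.

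With AMH none of the 3 receptors passed between 12 and 24 h, where 3.94% of all genes were called lower and 4.34% higher. The differences were -0.41 for Sort1 (SE 0.23, adjusted p = 0.307), -0.89 for Ednrb (SE 0.58, adjusted p = 0.379) and -0.85 for Adcyap1r1 (SE 0.40, adjusted p = 0.204). The arms were not shown to differ: the AMH effect at 24 h minus that at 12 h was 0.60 for Sort1 (adjusted p = 0.893) and 0.90 for Ednrb (adjusted p = 0.944). AMH and control differed by -0.34 for Sort1, -0.40 for Ednrb and -0.37 for Adcyap1r1 at 12 h, and by 0.26, 0.50 and -0.25 at 24 h, with none past the threshold. Ednrb had r = -0.823 with the granulosa genes within groups (exact permutation, adjusted p = 0.0342) and 0.629 with the endothelial genes (exact permutation, adjusted p = 0.18). Both relations were picked out after the values had been seen, and arrays of a pair share a pool, so they are not independent. The part of granulosa and endothelial cells in the Ednrb change was not tested.

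**Figure D4:**
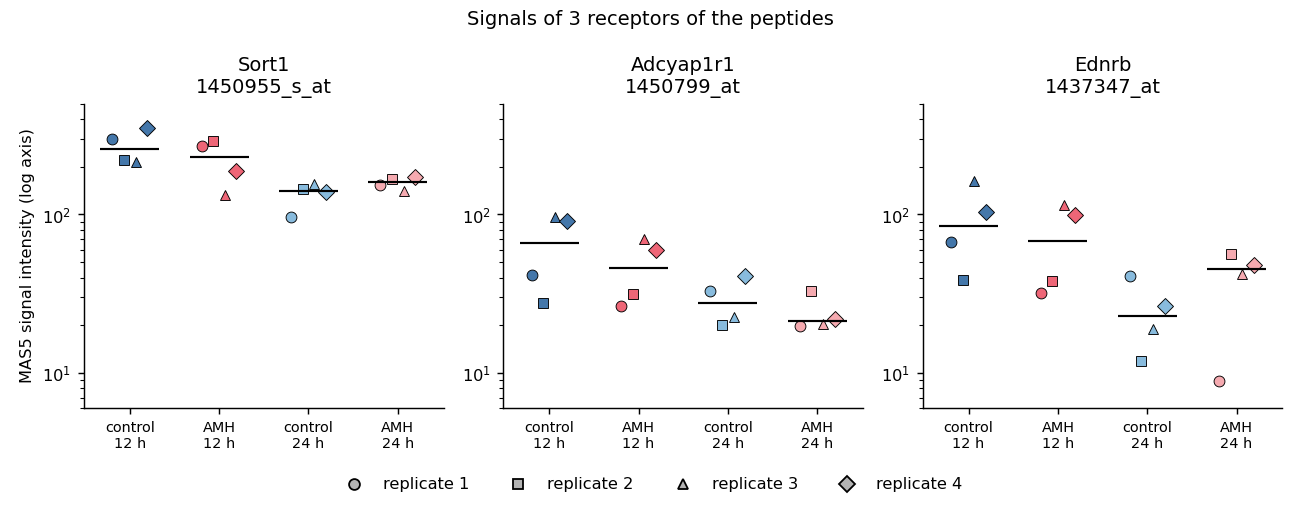
MAS5 signal intensity (log axis) of Sort1, Adcyap1r1 and Ednrb on the 16 arrays by group, with the median of each group as a bar and shapes for the replicate. Sort1 in controls falls from 216 to 349 at 12 h to 96.5 to 156 at 24 h without overlap, and the Adcyap1r1 and Ednrb groups overlap.

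Of 18 listed genes that cut and modify peptide precursors, 12 were tested, and 1 was called lower and none higher in each arm, beside 9.19% lower and 9.96% higher of all genes in controls and 3.94% and 4.34% with AMH. The called gene was Furin, a convertase of the secretory pathway: it fell by 0.51 in controls (SE 0.10, adjusted p = 0.00219 by limma) and fell by 0.33 with AMH (SE 0.10, adjusted p = 0.0432). The AMH-arm call was lost in 9 of 14 other settings, among them those without replicate 1, 2, 3 or 4, with adjusted p up to 0.299. The median change of the 12 was 0.14 in controls and -0.10 with AMH, beside -0.01 and -0.02 over all genes; Chga, a granule protein, had the largest difference in controls, -1.17 (SE 0.62, adjusted p = 0.198), and did not pass. Of 6 tested peptide-degrading enzymes, Ctsa, a lysosomal carboxypeptidase, rose by 0.85 in controls (SE 0.19, adjusted p = 0.0061) and by 0.77 with AMH (SE 0.19, adjusted p = 0.0211), and no other passed. Without replicate 2 neither Ctsa call held (adjusted p = 0.0506 and 0.11), and the AMH-arm call also ended without replicate 4 (adjusted p = 0.112). Centring each array on its median ended both Ctsa calls too (adjusted p = 0.0513 and 0.0769).

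Other peptide hormone genes went in both directions in controls. Of 14 tested, 3 fell and 3 rose from 12 to 24 h, where 9.19% of all genes were called lower and 9.96% higher: Nmb, neuromedin B, fell by 1.19 (SE 0.23, adjusted p = 0.00237), Gal, galanin, fell by 1.42 (SE 0.34, adjusted p = 0.00925) and Npy, neuropeptide Y, fell by 1.86 (SE 0.52, adjusted p = 0.0209), all by limma. Agt, the angiotensin precursor, rose by 2.08 (SE 0.48, adjusted p = 0.00738), as did Tac1, the substance P precursor, by 1.53 (adjusted p = 0.0253) and Nppc, C-type natriuretic peptide, by 1.29 (adjusted p = 0.0322). Leaving out replicate 1 ended the Gal call (adjusted p = 0.0649) and leaving out replicate 1 or 3 the Npy call (adjusted p = 0.0627 and 0.0705). Tac1 no longer passed once replicate 3 or 4 was dropped (adjusted p = 0.163 and 0.113). Nppc no longer passed once replicate 2, 3 or 4 was dropped (adjusted p = 0.159, 0.103 and 0.0522). With AMH none of the 14 passed, where 3.94% of all genes were called lower and 4.34% higher. Of the 14, 1 fell without replicate 1, 2 fell without replicate 2 and 1 rose without replicate 4. In those runs 638, 492 and 344 of 12172 genes were called with AMH in either direction. With a replicate block across times 2 of the 14 rose with AMH, Nppc among them (1.30, adjusted p = 0.0491 by limma), and 1 fell. That run called 1235 of 12172 genes with AMH. Without the block Nmb had a difference of -0.68, Gal of -0.92, Npy of -1.37 and Agt of 1.15. Of the relatives of the 4 peptides only Edn1, endothelin 1, was over the filter, with a difference of 0.03 (SE 0.73) in controls and 0.92 (SE 0.73) with AMH.

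Among genes of the ovulatory LH response, 35 were tested. In controls 14 fell and 2 rose, with a median change of -0.46, beside 9.19% lower and 9.96% higher of all genes. With AMH 9 fell and 1 rose, with a median of -0.38, beside 3.94% and 4.34%. The list was chosen with earlier results of these arrays known, so its direction is not independent evidence. Btc changed by -2.71 in controls and -2.25 with AMH (adjusted p = 2.5e-05 and 0.000264 by limma), and Ptgs2, the prostaglandin synthase, by -3.33 and -2.07. Tnfaip6, a hyaluronan-binding protein of the cumulus matrix, changed by -3.20 and -2.19, Fosl1, an AP-1 subunit, by -2.46 and -2.25, and Prkg2, a cyclic GMP-dependent kinase, by -1.94 and -2.11. Inhba, an activin and inhibin subunit, rose by 2.17 with AMH (adjusted p = 0.000453) and had a difference of 0.83 in controls (adjusted p = 0.0542). In the AMH arm Ptgs2 no longer passed without replicate 2 (adjusted p = 0.0673), nor Tnfaip6 without replicate 4 (adjusted p = 0.0765); the other calls of the 6 genes named here held in every alternative run. In controls Inhba passed with quantile normalization (adjusted p = 0.0499) and without replicate 4 (adjusted p = 0.0137). The 2 rises in controls became 0 without replicate 2 and with each array centred on its median. With AMH the count of falls was 4 without replicate 2 and 5 without replicate 4. AMH against control called none of the 35 at 12 h or 24 h.

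**Figure D5:**
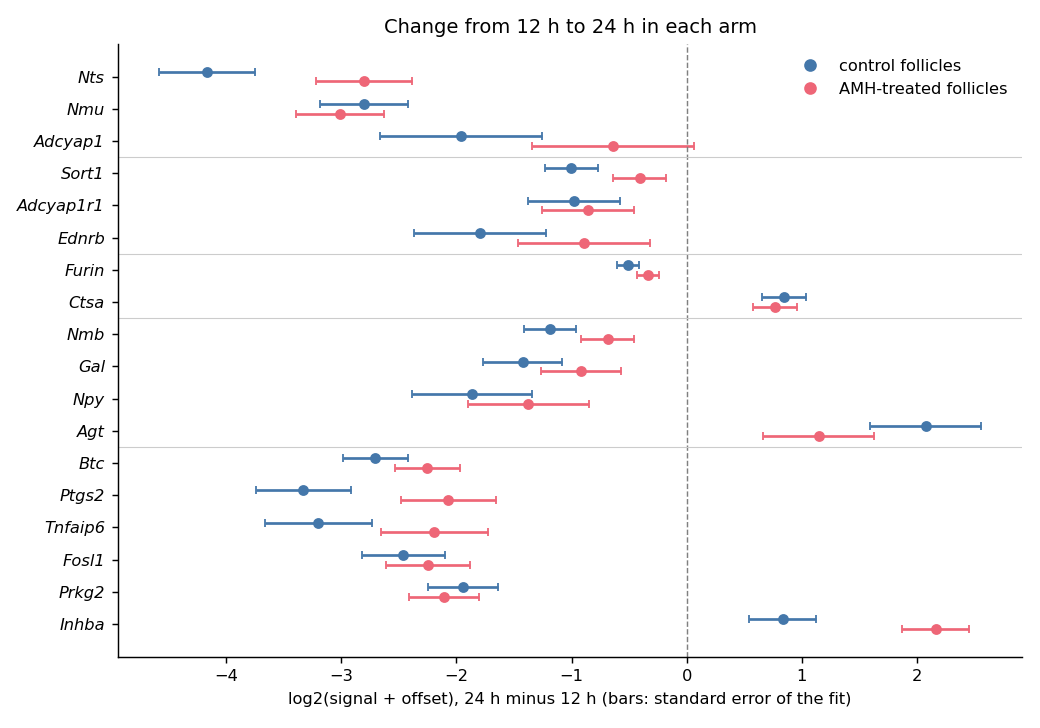
Change from 12 h to 24 h in control and in AMH-treated follicles, on the scale of log2(signal + 1.46), with the standard error of the fit as bars, for the 3 peptide genes over the filter and for named receptors, enzymes, other peptides and LH response genes, parted by grey lines. Edn2, under the filter and not lower at 24 h, is not drawn. Nts (-4.17 and -2.80) and Nmu (-2.80 and -3.01) lie with Ptgs2 (-3.33 and -2.07) and Tnfaip6 (-3.20 and -2.19) at the far left, and Adcyap1 has the widest bars of the peptide genes (SE 0.70).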

How the data were processed

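Labelled cDNA was amplified from 5 ng of total RNA, per the labels' protocols. The authors deposited intensity values on a linear scale, which by the submitters' processing notes came from MAS5; the 16 arrays share a trimmed mean of 150.001, and their medians lie between 27.8 and 40.2. Of 45101 probe sets, 34945 carried a single symbol in the platform annotation, 932 several and 9160 none, and 64 were controls, left out. Values were turned into log2(signal + 1.46), the offset being the 10th percentile of all values, and probe sets with a mean log2 under 4.18 (40th percentile) were dropped. Each gene was represented by its probe set of highest mean.

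Fits used limma (version 3.58.1, R 4.3.3) with moderation along the mean signal and Benjamini-Hochberg adjustment over all genes (threshold 0.05). AMH comparisons had the 8 pairs as a block, since the labels state that samples are comparable in pairs. Deviations of paired arrays correlated between 0.214 and 0.56 at 12 h and at -0.437, 0.327, 0.2 and -0.287 at 24 h. Time differences came from 4 group means. The labels do not say whether the 12 h and 24 h arrays of a replicate number shared a pool, so the main time fit had no replicate block. The p-values for AMH measure the spread of the differences within pairs. Those between times measure the spread of arrays within groups, and treat arrays of a shared pool as independent. The members, gene lists and motifs were chosen with earlier results of these data known. Named genes were the members, measured receptors, up to 4 called genes with the smallest p per other list and comparison, and the 5 genes most like each member; Tac1, Nppc, some values of LH response genes in the other arm, and the marker genes were named, and the relations with marker lists chosen, after values were seen. Alternatives changed the offset, filter, scaling, probe set choice, moderation, block and replicates. The fits were tested on simulated data. Promoters are from RefSeq (GRCm38.p6), with 4 of 4 members matched. Plots were made with Python 3.11.15 and matplotlib 3.10.9.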

Additional observations from a re-analysis of the deposited data

Results flagged for a closer look

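The Nts signal of replicate 4 in controls at 12 h, 1145, stood apart from the other 3 arrays of its group, of which the nearest was at 516; the gap was 0.834 of the range of the group. On the log2 scale, on which the tests were run, it did not stand apart. Chance flags about 1 in 20 groups, and 20 groups of 4 arrays were looked at on each scale, with 1 and 0 standing apart. Without replicate 4 the Nts difference between AMH and control at 12 h was -0.98 in place of -1.38, and the control difference between times -3.77 in place of -4.17. Why this array was high was not tested.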

How the results depend on the processing

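Under all alternatives the number of tested members called for AMH was 0 at 12 h, at 24 h, for the mean of both times and for the difference. All differences between times of Nts, Nmu and Adcyap1 kept their sign. The number of members with all 24 h arrays under all 12 h arrays went from 2 to 1 in each arm with the filter at the 60th percentile, which drops Nmu. Signs changed for values near 0: Nts at 24 h was 0.10 with each array centred on its median and 0.073 with quantile normalization, and between -0.17 and 0.39 with a replicate left out. Adcyap1 at 24 h ranged from -0.12 to 0.74 and its mean of both times from -0.57 to 0.030 with a replicate left out. The Nmu difference between the AMH effects was 0.14 with an offset of 16. Without the replicate block no call of a member changed, and the Nts adjusted p at 12 h was 0.933 by limma (0.398 to 1.00 over its alternatives); with a replicate block across times the differences were the same and 2634 and 1235 genes were called in controls and with AMH. Over all genes the count called between times went from 1185 to 2634 (2330 as reported) in controls and from 344 to 1235 (1008) with AMH, lowest without replicate 3 and without replicate 4. With 23238 probe sets tested one by one, 3673 and 1566 probe sets were called; AMH calls were 0 to 2 at 24 h and 0 or 1 elsewhere. The causes were not tested. Signals under 16.6, which include most Edn2 values and most Nmu values at 24 h, and 4 arrays per group limit the precision.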
